A study of Mus musculus with 6 samples.

Results

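The nuclear-encoded subunits of the mitochondrial oxidative phosphorylation system were taken from a bulk RNA-seq table of mouse liver by gene symbol: names of the Nduf, Sdh, Uqcr, Cox4 to Cox8 and Atp5 families, leaving out pseudogenes. The rule found 87 of the 16603 genes in the table. By family name, 41 belong to complex I, 4 to complex II, 8 to complex III, 17 to complex IV and 17 to complex V. Liver RNA was compared between 3 libraries labelled wild-type (WT) and 3 labelled Mdr2-knockout, in a study of progenitor cells, bile duct expansion and fibrosis. Mdr2 is the older name of Abcb4, which encodes the phospholipid exporter of the hepatocyte's bile canaliculus, and mice that lack it develop sclerosing cholangitis and fibrosis. Tissue and genotype are labelled, no treatment is, and age, sex, strain, allele and the removed part of the gene are not given. Nothing states that each sample is its own animal, so the p-values reflect only the spread among these samples, part of which may be technical.

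Complex I passes electrons from NADH to ubiquinone, and complex II, which is also the succinate dehydrogenase of the citric acid cycle, does so from succinate. Complex III hands them on to cytochrome c and complex IV to oxygen, while complexes I, III and IV pump protons that drive ATP synthesis in complex V. Most subunits are encoded in the nucleus, and a small set at the catalytic heart of complexes I, III, IV and V is encoded in mitochondrial DNA; those were not analysed here. Hepatocytes are rich in mitochondria and use this system to power gluconeogenesis, urea synthesis and bile formation. NRF1, the ETS factor GABP and YY1 are known regulators of nuclear genes for mitochondrial proteins.

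Promoters are shown because many of the subunit genes were called in the same direction under TMM scaling, though not under total counts, as given below. RefSeq promoters (GRCm38.p6, 250 bases before to 50 bases after the first listed start) matched 70 of the 87 genes by symbol. Both strands were searched for the NRF1 motif (GCGCA, any base, then GCGC), for CCGGAAG, an ETS motif of the GABP type, and for AAGATGGCG, a YY1 motif, and the matches printed do not overlap one another. The 250 bases before the start follow, 5′ to 3′ on the gene's strand, with motif matches in capitals, for 3 genes with several NRF1 matches and for Atp5md, which has none of the motifs in this window and 1 ETS match after the start, in bases not printed.
Ndufb4 (chr16:37654369-37654618, minus strand): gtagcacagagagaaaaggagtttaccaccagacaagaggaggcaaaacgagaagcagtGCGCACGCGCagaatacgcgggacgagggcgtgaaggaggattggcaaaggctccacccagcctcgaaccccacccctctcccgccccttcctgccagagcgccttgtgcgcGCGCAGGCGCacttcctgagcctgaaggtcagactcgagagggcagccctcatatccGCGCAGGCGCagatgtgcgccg
Sdha (chr13:74350241-74350490, minus strand): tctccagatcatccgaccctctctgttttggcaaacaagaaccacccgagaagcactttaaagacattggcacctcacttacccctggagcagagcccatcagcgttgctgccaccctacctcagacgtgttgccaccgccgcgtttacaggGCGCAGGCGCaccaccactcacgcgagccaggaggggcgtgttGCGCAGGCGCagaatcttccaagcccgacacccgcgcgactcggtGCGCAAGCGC
Cox6a1 (chr5:115348959-115349208, minus strand): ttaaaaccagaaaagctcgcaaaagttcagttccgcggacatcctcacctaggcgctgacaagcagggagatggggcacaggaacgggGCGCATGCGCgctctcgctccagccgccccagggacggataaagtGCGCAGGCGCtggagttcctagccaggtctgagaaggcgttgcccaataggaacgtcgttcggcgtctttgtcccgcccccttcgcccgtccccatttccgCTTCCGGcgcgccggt
Atp5md (chr19:47090648-47090897, minus strand): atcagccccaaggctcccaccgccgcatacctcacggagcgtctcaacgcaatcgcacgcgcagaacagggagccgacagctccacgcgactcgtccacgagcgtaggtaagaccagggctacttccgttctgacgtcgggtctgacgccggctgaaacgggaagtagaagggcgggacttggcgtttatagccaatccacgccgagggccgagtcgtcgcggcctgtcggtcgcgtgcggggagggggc
Ndufb4 and Sdha each held 3 NRF1 matches, and Cox6a1 held 2 together with 1 ETS match. The NRF1 motif lay in 16 of the 70 subunit promoters (22.9%), in 4.78% of 27025 promoters of all genes and in 8.66% of those of genes in the count table. The ETS motif lay in 16 (22.9%), against 9.12% and 15.3%, and the YY1 motif in 6 (8.57%), against 1.49% and 2.55%. A match is a description of the letters in the window.

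Each library held 17100393 to 18124467 counts, and 3 counts in a library equal 0.149 to 0.192 CPM. Within a group, libraries correlated across tested genes at r of at least 0.990, and between groups at no more than 0.973; genes are not independent replicates. Abcb4 itself had more, not fewer, reads in the group labelled Mdr2-knockout, with 329.9, 369 and 273 CPM in the wild-type libraries and 499.6, 513 and 434 CPM in the Mdr2-knockout libraries. This goes against the label if the allele removes the transcript, which the labels do not say, and Mdr2-knockout below stands for the label. The letter of the wild-type columns was matched by elimination, and each direction below depends on that match. CPM are counts scaled to 1e+06 per library after scaling by TMM (trimmed mean of M-values), which places the typical gene near no change.

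Under TMM scaling, 58 of the 81 tested subunit genes were lower in the libraries labelled Mdr2-knockout and 0 were higher; under total-count scaling 2 were lower and 4 higher, where 2.62% of all tested genes were lower and 47.1% higher. A gene was called at an adjusted p under 0.05 in edgeR's quasi-likelihood test. The subunit share called lower was 71.6%, where 16.3% of all 12612 tested genes were called lower and 20.9% higher. The members called lower had log2 fold changes of -0.20 to -0.68, a change in level of -12.7% to -37.7%, with SEs of 0.06 to 0.10. None of the 81 reached a 2-fold change at that threshold, which 11.9% of all tested genes did. The median log2 fold change of the subunit genes was -0.30 (quartiles -0.40 and -0.22), and that of all tested genes was 0.01. In 63 of the 81, every Mdr2-knockout library lay below every wild-type library, against 23.7% of all tested genes. In 0 did every one lie above, against 27.6%. At a mean of 20 CPM or more, a limit chosen after the data were seen, 63 of 76 subunit genes and 2285 of 5726 tested genes lay wholly below. Wholly above lay 0 and 802. The 6 genes that the low-count filter left out were Cox4i2, Cox6a2, Cox6b2, Cox7b2, Cox8b and Ndufb4c.

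**Figure D1:**
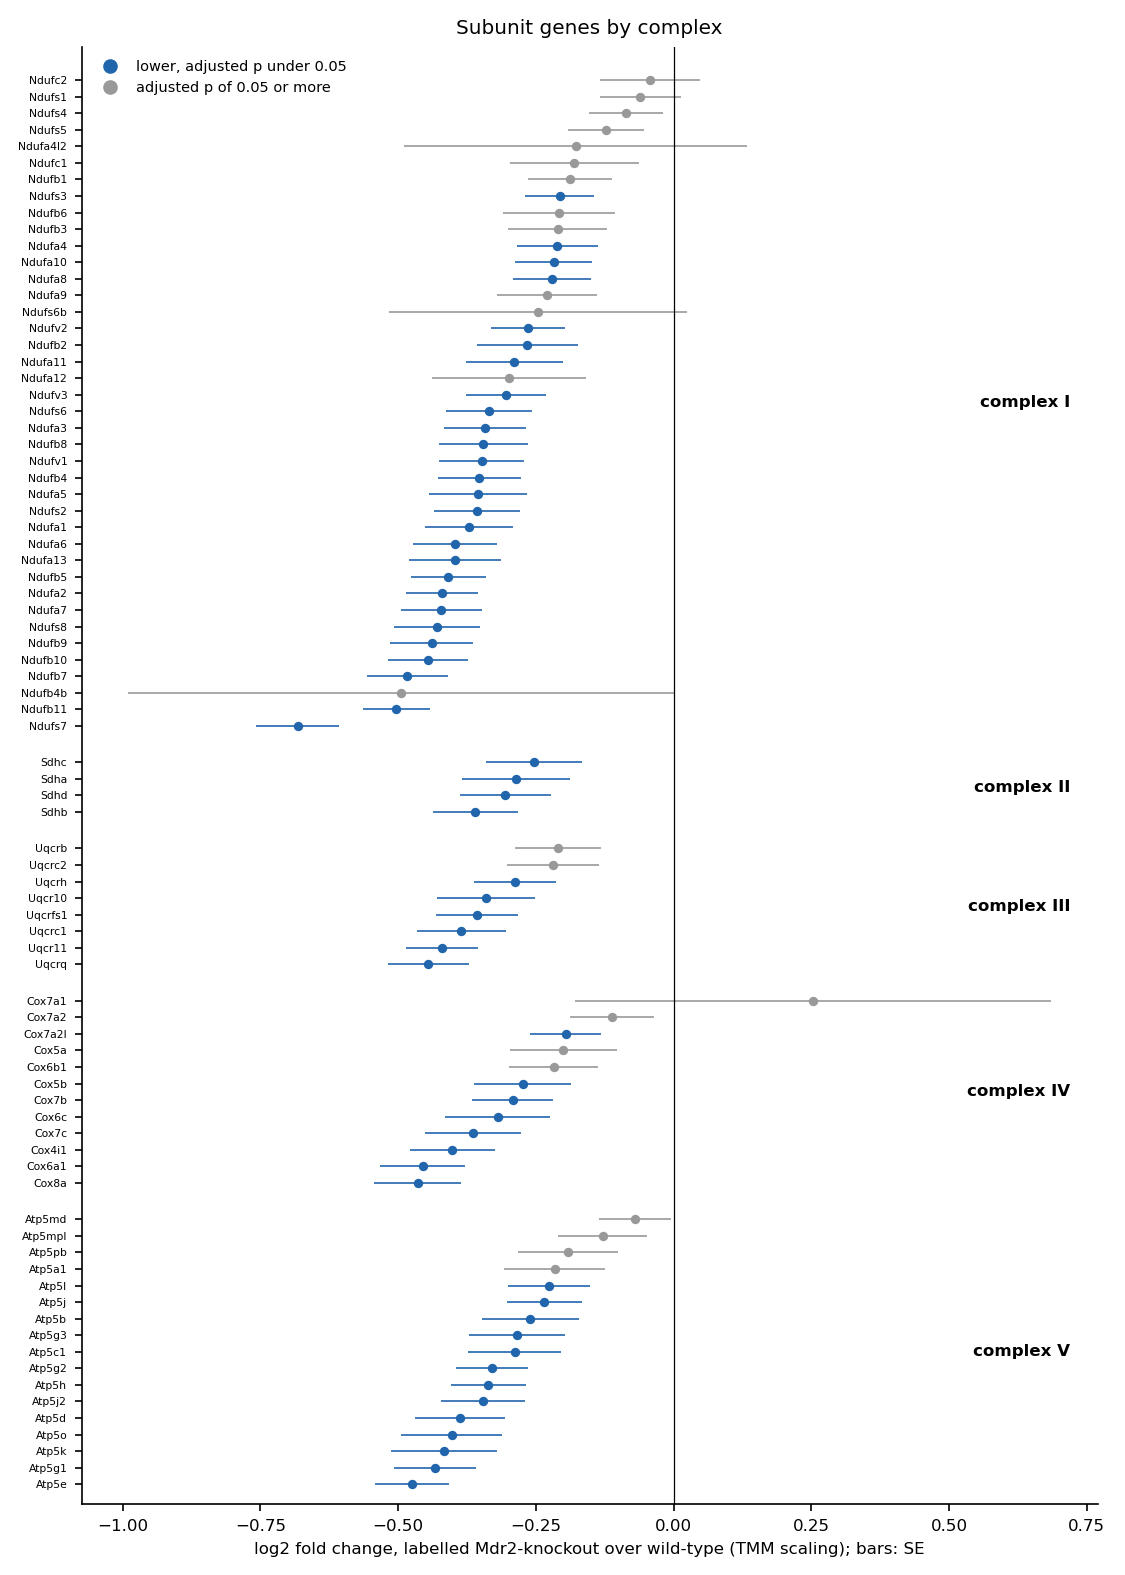
Log2 fold change of each of the 81 tested subunit genes (horizontal axis, labelled Mdr2-knockout over wild-type, TMM scaling) by complex, with bars of 1 SE; blue marks the 58 genes called lower at an adjusted p under 0.05. Nearly every point lies left of 0, with Ndufs7 lowest at -0.68; under total-count scaling the median lies at -0.01.

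The size and side of this difference depended on how libraries were scaled. The median of all tested genes lay at 0.01 under TMM, -0.0013 under RLE, 0.07 under upper-quartile and 0.30 under total-count scaling. The median of the subunit genes lay at -0.30, -0.31, -0.25 and -0.01 in the same order. The subunit median minus that of all tested genes was -0.31 under TMM, and 80 of the 81 subunit genes lay below the latter. A scaling factor shifts the genes of a library alike, so this gap is nearly the same under each scaling by construction. Among genes above a floor of level the gap was smaller, though a floor does not match the sets in level. At a mean of 20 CPM or more the TMM medians were -0.31 for 76 subunit genes and -0.13 for 5726 tested genes. All 76, and 4013 of the 5726, lay below the median of all tested genes. As a share of all counts the groups differed by less than their spread: the subunits made up 0.966% ± 0.0638 of a wild-type library and 0.960% ± 0.0405 of a Mdr2-knockout library (SD, n = 3 each). The libraries ranged from 0.894% to 1.017% in wild-type and from 0.932% to 1.007% in Mdr2-knockout, so the groups overlapped. Their summed TMM-scaled level was 11055, 11083 and 9933 CPM in the wild-type libraries and 9052, 8489 and 8503 CPM in the Mdr2-knockout libraries, without overlap. These data alone do not say which scaling matches RNA per cell, and in bulk tissue fewer cells of a type and less RNA per cell cannot be told apart.

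**Figure D2:**
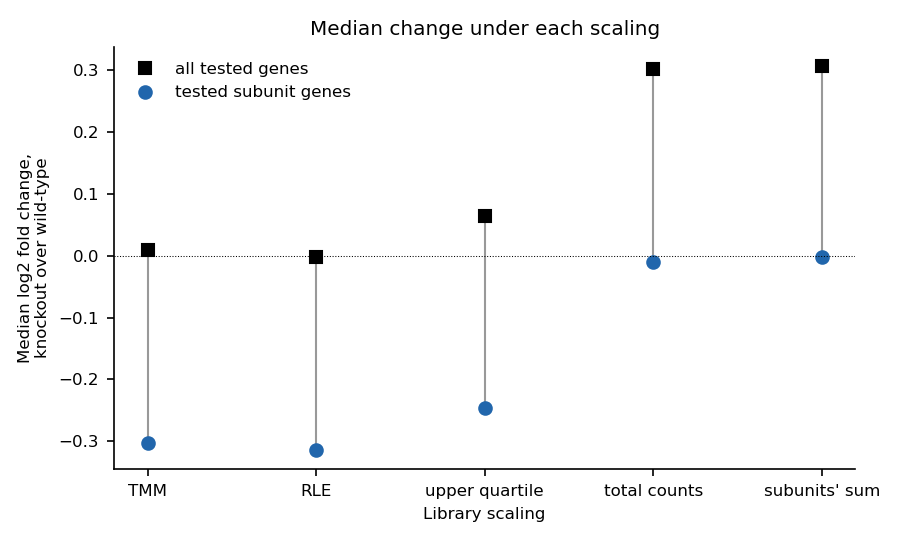
Median log2 fold change (vertical axis, labelled Mdr2-knockout over wild-type) of all 12612 tested genes (black squares) and of the 81 tested subunit genes (blue circles) under 5 library scalings. Both medians shift together, as a change of scaling makes them do by construction, so the gap of -0.31 is not a check of stability. Among genes at a mean of 20 CPM or more, not drawn, the TMM medians were -0.13 for all tested genes and -0.31 for the subunit genes.

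Several lists of cell type markers moved with the groups on the same TMM scale, where 16.3% of all tested genes were lower and 20.9% higher. Under total counts 2.62% were lower and 47.1% higher. Of 10 hepatocyte markers, 7 were lower and 0 higher, with a median log2 fold change of -0.61 (4 lower and 2 higher under total counts). Their summed level was 114360 to 123374 CPM in the wild-type libraries and 73402 to 75637 CPM in the Mdr2-knockout libraries, and none was at 0. Most of this sum was Alb, at 81231 to 89905 CPM in wild-type and 48643 to 50337 CPM in Mdr2-knockout. Cps1 and Ass1 stand in both the hepatocyte and the periportal list. Of 6 periportal hepatocyte markers 2 were lower and 0 higher (median -0.07; 0 lower and 2 higher under total counts), with sums of 16868 to 18318 CPM against 13678 to 15857 CPM. Of 6 pericentral ones 1, Cyp2e1, was lower and 0 higher (median -0.06; 1 lower and 3 higher under total counts), with sums of 11803 to 12994 CPM against 4969 to 6384 CPM. All 7 cholangiocyte markers were higher, with a summed level of 41.1 to 56.5 CPM against 325 to 360 CPM. Of the stellate and fibroblast markers 6 of 8 were higher, from a sum of 234 to 359 CPM to one of 547 to 662 CPM. Of the macrophage markers 4 of 6 were higher, from 135 to 237 CPM to 239 to 271 CPM. Under total counts 7 cholangiocyte, 7 stellate and fibroblast and 5 macrophage markers were higher. Other lists were mixed under TMM: 2 of 5 endothelial markers were higher and 1 lower, and 2 of 6 smooth muscle and pericyte markers were higher. Of the neutrophil markers 3 of 4 were higher, of 3 tested red blood cell markers 1 was lower, and the 1 tested lymphocyte marker was not called. The part of these shifts in the subunit values was not tested. The background differed with level: at a mean of 20 CPM or more, a limit chosen after the data were seen, 58 of 76 subunit genes (76.3%) were lower, where 29.4% of 5726 tested genes were lower and 9.9% higher. Across all tested genes, fold change and level had a Spearman rho of -0.51, and across the subunit genes -0.24, given as a description. The subunit transcripts are short (median 764 bases against 3542), and of the tested genes of 1000 bases or less 28.8% were lower, against 34 of 48 subunit genes of that length and 24 of 33 longer ones.

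Complex I had 27 of 40 tested subunit genes lower under TMM scaling (median -0.32), and 2 lower and 3 higher under total counts. Of the 7 core subunits, which carry the flavin and the iron-sulfur clusters, 6 were lower. Of 30 subunits counted as accessory by name, 21 were, among them Ndufa4, which is now known as a complex IV subunit. The 2 gene copies and Ndufa4l2 were counted apart. Ndufs7, the core subunit whose iron-sulfur cluster sits next to the ubiquinone site (GRCm38.p6 chr10:80249105-80256794), showed the lowest value of the 81 genes. It measured 60.6, 66.9 and 59.4 CPM in the wild-type libraries and 36.5, 40.7 and 39.2 CPM in the Mdr2-knockout libraries. The groups lay far apart for this gene, with a gap wider than the range within either group (log2 fold change -0.68 with an SE of 0.08, adjusted p = 0.000133). Ndufb11, an accessory subunit of the membrane arm (chrX:20615326-20617619), measured 97.8, 101 and 99.4 CPM in the wild-type libraries and 70.3, 68.6 and 71.2 CPM in the Mdr2-knockout libraries. Its wild-type and Mdr2-knockout libraries also fell into narrow, separate ranges (log2 fold change -0.50 with an SE of 0.06, adjusted p = 0.000211). Ndufb7 and Ndufb10, accessory subunits of the same arm, had log2 fold changes of -0.48 and -0.45, and Ndufa2, an accessory subunit of the matrix arm, had -0.42; each had an SE of 0.07 and groups that did not overlap.

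The core subunit Ndufs1, which binds several of the iron-sulfur clusters, stood apart from the other 6 core genes. It measured 121, 115 and 106 CPM in the wild-type libraries and 114, 105 and 109 CPM in the Mdr2-knockout libraries, with groups that overlapped (log2 fold change -0.06 with an SE of 0.07, adjusted p = 0.55). Under total counts it was higher, with a log2 fold change of 0.23 and an adjusted p of 0.031 in edgeR. Ndufs4, an accessory subunit of the matrix arm, and Ndufc2, one of the membrane arm, behaved alike in both scalings: -0.09 and -0.04 under TMM, not called, and 0.21 and 0.25 under total counts, called higher. Ndufs1, Ndufs4 and Ndufc2 were thus the complex I genes nearest to the typical gene. Ndufa4, named for complex I and now known as a subunit of complex IV, had the highest level per length in the family, at 322 ± 12.1 FPKM in wild-type and 341 ± 15.6 FPKM in Mdr2-knockout (SD, n = 3 each). On the TMM scale it was lower by a small margin (log2 fold change -0.21 with an SE of 0.07, adjusted p = 0.0456); its call was lost when any library but wild-type 3 was left out, with adjusted p of 0.0568 to 0.142. The gene copies Ndufb4b and Ndufs6b (6 to 19 and 20 to 27 counts a library) were tested and not called, and reads could be split between them and Ndufb4 or Ndufs6.

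In complex II all 4 genes were lower under TMM scaling (median -0.30), and 0 of them under total counts. Sdha, the flavoprotein that oxidises succinate (chr13:74322255-74350240), measured 617, 564 and 508 CPM in the wild-type libraries and 501, 424 and 461 CPM in the Mdr2-knockout libraries. All 3 Mdr2-knockout libraries lay below the wild-type ones by a margin smaller than the spread within a group (log2 fold change -0.29 with an SE of 0.10, adjusted p = 0.0432). Sdhb, the iron-sulfur subunit, measured 148, 149.8 and 141 CPM in the wild-type libraries and 124, 109 and 108 CPM in the Mdr2-knockout libraries, with a wider gap relative to its spread (log2 fold change -0.36 with an SE of 0.08, adjusted p = 0.00487). The membrane anchors Sdhc and Sdhd had log2 fold changes of -0.25 and -0.31 and adjusted p of 0.0419 and 0.0153. The count of 4 rested on single libraries: it was 2 without wild-type library 1, 1 without wild-type library 2, and 2 without Mdr2-knockout library 2 or 3. Sdhb passed in each of these fits. As a share of library counts complex II made up 0.0979% ± 0.00877 in wild-type and 0.0978% ± 0.00625 in Mdr2-knockout.

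Of the 8 complex III genes 6 were lower under TMM scaling (median -0.35) and 0 under total counts. Uqcrq, a small subunit beside cytochrome b, measured 224, 229 and 217 CPM in the wild-type libraries and 174, 162 and 156 CPM in the Mdr2-knockout libraries (log2 fold change -0.45 with an SE of 0.07, adjusted p = 0.00132). Uqcr11, another small subunit, measured 81.8, 79.6 and 78.2 CPM in the wild-type libraries and 62.7, 58.5 and 57.8 CPM in the Mdr2-knockout libraries (log2 fold change -0.42 with an SE of 0.07, adjusted p = 0.000908). In both genes the lowest wild-type library stood above the highest Mdr2-knockout library by more than the range of either group. Uqcrfs1, the Rieske iron-sulfur protein, had a log2 fold change of -0.36 and the core protein Uqcrc1 one of -0.39. The second core protein, Uqcrc2, had -0.22 with an adjusted p of 0.063 and was not called, although every Mdr2-knockout library was below every wild-type one. Uqcrb, which binds ubiquinone, had -0.21 with an adjusted p of 0.0569. Uqcrh, the acidic hinge protein that meets cytochrome c1, had the highest level per length of complex III at 215 FPKM in wild-type and 216 FPKM in Mdr2-knockout.

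Complex IV had 8 of 12 tested genes lower under TMM scaling (median -0.28) and 0 under total counts. Cox4i1, the ubiquitous form of the largest nuclear-encoded subunit, measured 418, 438 and 402 CPM in the wild-type libraries and 324, 322 and 307 CPM in the Mdr2-knockout libraries (log2 fold change -0.40 with an SE of 0.08, adjusted p = 0.00291). Cox6a1, the liver-type form of a regulatory subunit (chr5:115345652-115348958), measured 191, 194 and 175 CPM in the wild-type libraries and 143, 138 and 128 CPM in the Mdr2-knockout libraries (log2 fold change -0.46 with an SE of 0.08, adjusted p = 0.00142). Both genes separated the groups without overlap. Cox8a, the smallest subunit, had a log2 fold change of -0.46, Cox7c one of -0.36 and Cox7b one of -0.29. Cox5b, a zinc-binding subunit, was called lower (log2 fold change -0.27 with an SE of 0.09, adjusted p = 0.0324) though its groups overlapped, at 119, 117 and 103 CPM in the wild-type libraries and 103, 86.1 and 90.8 CPM in the Mdr2-knockout libraries. Cox6b1 (-0.22, adjusted p = 0.0576) and Cox7a2 (-0.11, adjusted p = 0.278) were not called. Without wild-type library 1 or Mdr2-knockout library 3 the complex IV count was 5.

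Complex V, the ATP synthase, had 13 of 17 genes lower under TMM scaling (median -0.29), and 0 lower and 1 higher under total counts. Of the 5 genes of the catalytic head and central stalk 4 were lower, of the c ring 3 of 3, of the peripheral stalk 3 of 4 and of the small membrane subunits 3 of 5. Atp5e, the epsilon subunit of the central stalk, had the lowest fold change of complex V and measured 69.4, 67.1 and 72.1 CPM in the wild-type libraries and 51.3, 51.4 and 47.4 CPM in the Mdr2-knockout libraries (log2 fold change -0.47 with an SE of 0.07, adjusted p = 0.000559). Atp5b, the catalytic beta subunit, had the highest level per length of the 87 genes, at 597 ± 49.1 FPKM in wild-type and 610.2 ± 22.9 FPKM in Mdr2-knockout (SD, n = 3 each). On the TMM scale it measured 1262, 1334 and 1128 CPM in the wild-type libraries and 1072, 1009 and 1028 CPM in the Mdr2-knockout libraries. The groups did not overlap, and the call was a narrow one (log2 fold change -0.26 with an SE of 0.09, adjusted p = 0.0401) that was lost when any library but wild-type 3 was left out, with adjusted p of 0.0628 to 0.136. Atp5md, a small membrane subunit of the synthase dimer (chr19:47083471-47090647), measured 53.5, 51.8 and 51.2 CPM in the wild-type libraries and 50.7, 50.6 and 47.8 CPM in the Mdr2-knockout libraries and was not called (log2 fold change -0.07 with an SE of 0.07, adjusted p = 0.428); under total counts it was higher (0.22, adjusted p = 0.021 in edgeR). Without wild-type library 1 or 2, or Mdr2-knockout library 2 or 3, the complex V count was 8.

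Set side by side, the complexes moved by like amounts: their median log2 fold changes under TMM scaling were -0.32, -0.30, -0.35, -0.28 and -0.29 for complexes I to V, and under total counts -0.03, -0.0029, -0.06, 0.01 and 0.0044. No test between complexes was run. Complex V made up 37.5%, 37.9% and 37.2% of the subunit counts in the wild-type libraries and 38.5%, 38.1% and 38.6% in the Mdr2-knockout libraries, a small difference without overlap. Complex III made up 11.6%, 11.6% and 11.8% of these counts against 11.5%, 11.3% and 11.4%, also without overlap. Complex I went from 25.1% ± 0.360 to 24.8% ± 0.409, complex II from 10.1% ± 0.282 to 10.2% ± 0.276 and complex IV from 15.5% ± 0.151 to 15.2% ± 0.368 (SD, n = 3 each), and the groups overlapped for these. Shares of the subunits' summed FPKM overlapped for complex III, at 12.06%, 11.85% and 11.86% in wild-type and 11.89%, 11.67% and 11.84% in Mdr2-knockout. Those of complex V did not, at 29.60%, 29.68% and 29.48% against 30.28%, 30.01% and 30.38%. Summed per length, complex I had 2873 ± 147 FPKM in wild-type and 2805 ± 68.8 FPKM in Mdr2-knockout, complex IV 2298 ± 140.5 and 2226 ± 112 FPKM, and complex V 2901 ± 182 and 2915 ± 115 FPKM. These sums and shares go by family name, so Ndufa4 (322 and 341 FPKM) stands in complex I and not in complex IV. The FPKM follow the total counts, and their differences lie within the spread of the libraries.

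**Figure D3:**
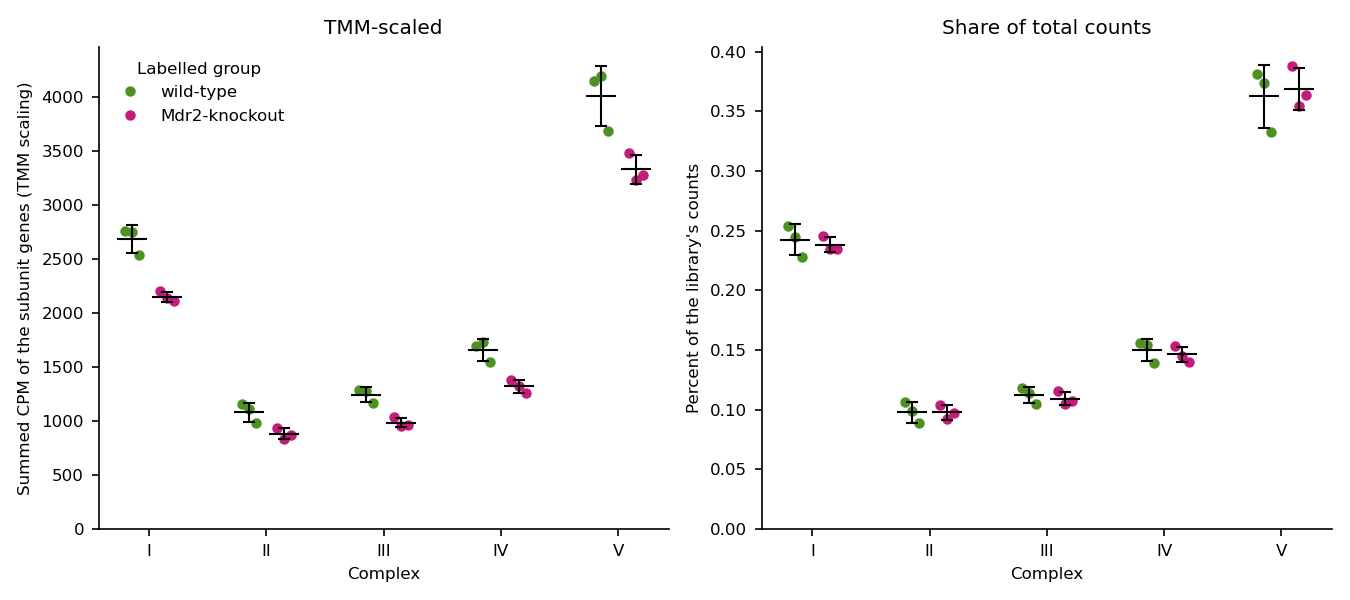
Summed level of each complex's subunit genes in every library (points; green wild-type, pink labelled Mdr2-knockout; lines: mean ± SD, n = 3), as TMM-scaled CPM on the left and as percent of the library's counts on the right. The groups separate on the TMM scale in each complex and overlap as shares of the library.

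Subunits were also set against one another by scaling each library to the summed counts of the 81 tested subunit genes, an alternative chosen after the data were seen. This scaling centres the subunit genes at 0 by construction, so the number of calls does not measure their spread. With it 1 subunit gene was called lower and 2 higher, where 2.09% of all tested genes were lower and 42.9% higher. Ndufs7 was the one called lower, at -0.38 (SE 0.10, adjusted p = 0.00619 in edgeR). Ndufb11 came next at -0.21 with an adjusted p of 0.0662. Ndufs1 (0.24, adjusted p = 0.0283 in edgeR) and Atp5md (0.23, adjusted p = 0.0483) were called higher. On the TMM scale the log2 fold changes of the subunit genes had an SD of 0.13 across genes, and those of all tested genes 0.85. The SD of all genes is raised by extreme values: scaled median absolute deviations were 0.13 and 0.39. At a mean of 20 CPM or more the quartiles were -0.40 and -0.22 for subunit genes, and -0.28 and 0.05 for all tested genes. Ndufs7 and Ndufb11 were also the 2 genes whose lower call held in each of the 14 alternatives fixed for this work, total counts included; 41 of the 58 held in each of the others. Exons overlap a gene on the opposite strand in GENCODE for Ndufb11 (Rbm10), Ndufs1 (Eef1b2), Ndufa2 (Tmco6), Cox4i1 (Emc8), Atp5d (Cbarp) and Ndufa4l2 (Shmt2). Exon overlaps with a gene of the table on either strand were found for 22 of the 83 members present there, and without a stated strand setting their reads cannot be told apart.

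**Figure D4:**
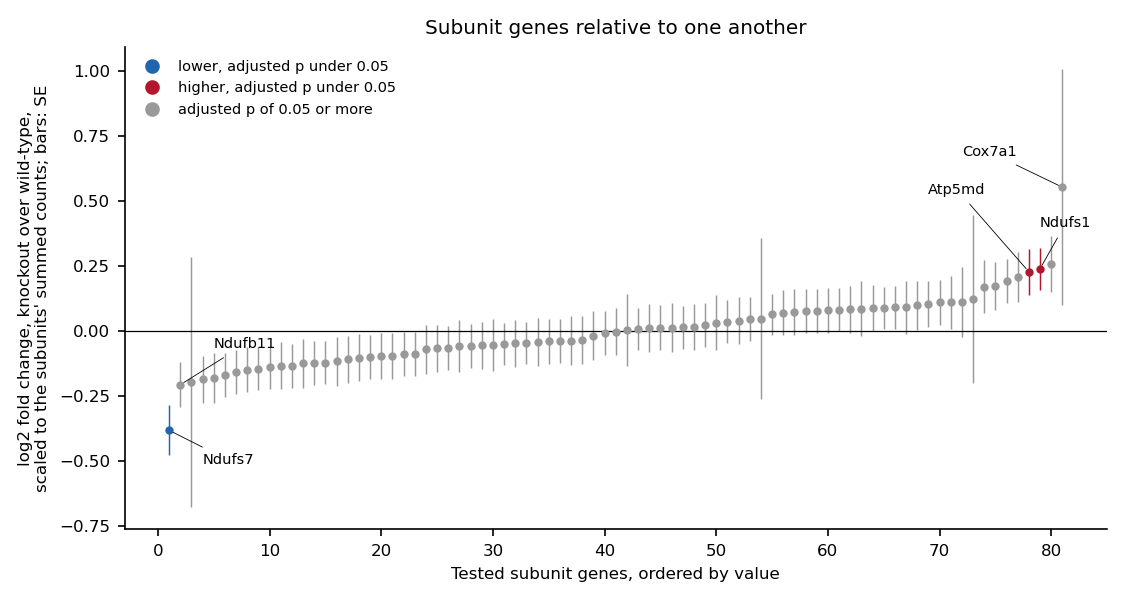
Log2 fold change of each tested subunit gene (points, ordered by value; bars: SE) after scaling every library to the subunits' summed counts. Coloured points are the called genes, Ndufs7 at -0.38 and Atp5md and Ndufs1 at 0.23 and 0.24; Ndufc2 (0.26) and Cox7a1 (0.55) lie higher and were not called.

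Several complex IV subunits and a few others have isoforms named for heart and skeletal muscle, lung or testis, and liver expressed the common forms almost alone. Cox4i1 had 496 FPKM in wild-type and 460 FPKM in Mdr2-knockout, while its lung-type partner Cox4i2 had 0 to 2 counts in a library. Cox6a2, the heart and muscle form, had 0 or 1 count and Cox7b2 had 1 count in 6 libraries together, so a share in either group could not be measured at this depth. Cox7a1, the heart and muscle form of subunit 7a, had 7, 11 and 6 counts in the wild-type libraries and 11, 16 and 9 counts in the Mdr2-knockout libraries. That is 1.01 FPKM per 100 FPKM of Cox7a2 in wild-type and 1.30 in Mdr2-knockout, in overlapping groups (log2 fold change 0.25, SE 0.43, adjusted p = 0.677 in edgeR). Cox6b2, the testis form, had 4 to 15 counts, and Ndufa4l2, a paralogue of Ndufa4 known for its induction in low oxygen, had 27, 22 and 15 counts in the wild-type libraries and 27, 23 and 21 counts in the Mdr2-knockout libraries. Cox6b2 amounted to 0.304 and 0.280 FPKM per 100 of Cox6b1, and Ndufa4l2 to 0.331 and 0.337 per 100 of Ndufa4, in wild-type and Mdr2-knockout.

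Cox8b, the heart and muscle form of subunit 8, had 1, 0 and 0 counts in the wild-type libraries and 5, 0 and 0 counts in the Mdr2-knockout libraries. Its 5 counts all lay in Mdr2-knockout library 1. The same library held 44 counts of the adipocyte marker list, with Cidea at 20, Adipoq at 12, Ucp1 at 8 and Plin1 at 4, while the other 5 libraries held 0 to 8 of the list. The striated muscle list summed to 0 to 3 counts in every library. The part of adipose tissue in this count was not tested.

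Cox7a2l, a relative of Cox7a2 known for tying complexes III and IV into supercomplexes, was not a rare form: it amounted to 66.7 FPKM per 100 of Cox7a2 in wild-type and 63.0 in Mdr2-knockout. It was called lower under TMM scaling (log2 fold change -0.20 with an SE of 0.06, adjusted p = 0.0364), and its call was lost when any library but wild-type 2 was left out, with adjusted p of 0.0594 to 0.0948; under total counts it lay at 0.10. The c ring of complex V is built from a single mature protein encoded by 3 genes. Atp5g3 was the main one, and Atp5g2 amounted to 45.6 and 44.2 FPKM and Atp5g1 to 32.3 and 29.1 FPKM per 100 of Atp5g3 in wild-type and Mdr2-knockout. Ratios within a library do not depend on the scaling, and 6 pairs had counts in every library. The log2 ratio differed between groups by 0.07 for Cox6b2 to Cox6b1, 0.37 for Cox7a1 to Cox7a2, -0.09 for Cox7a2l to Cox7a2, 0.07 for Ndufa4l2 to Ndufa4, -0.15 for Atp5g1 to Atp5g3 and -0.05 for Atp5g2 to Atp5g3. Exact two-sided permutation tests gave p of 0.2 to 0.9, each 0.9 after Benjamini-Hochberg adjustment over the 6 pairs, and 3 libraries against 3 cannot go below 0.1.

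**Figure D5:**
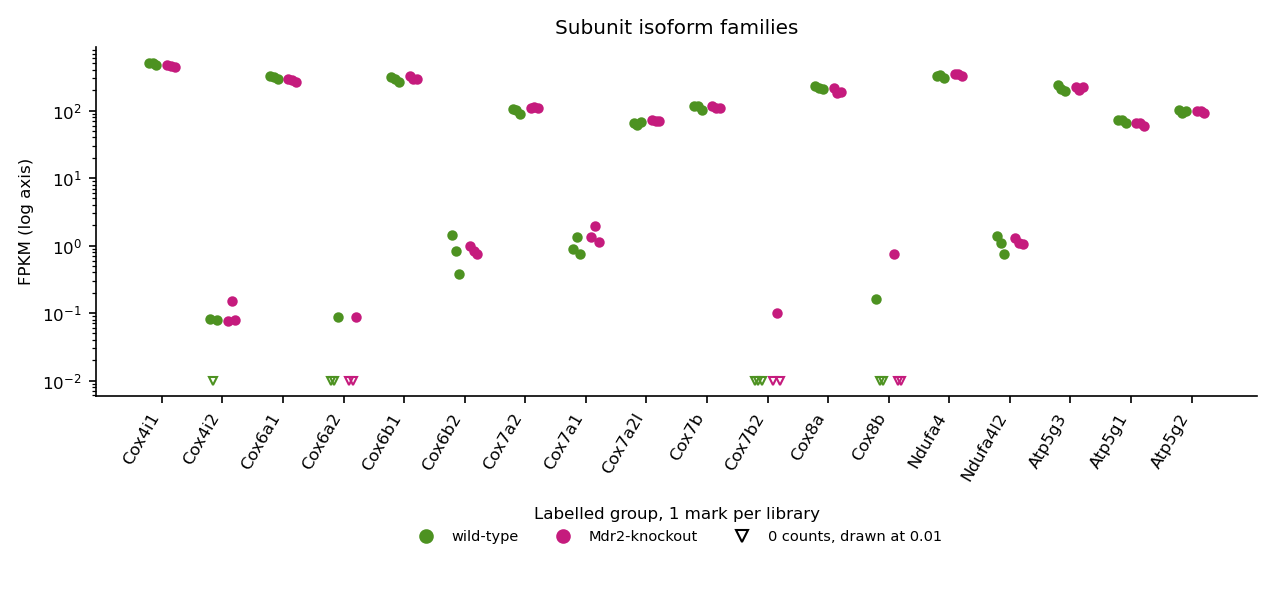
Level of the isoform families in every library (points; vertical axis FPKM on a log scale; green wild-type, pink labelled Mdr2-knockout; open triangles mark 0 counts, drawn at 0.01). Cox4i1 lies highest at 496 and 460 FPKM, and the forms of other tissues, such as Cox7a1 and Cox4i2, lie far below their partners.

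Other genes of the pathway were read from lists on the same TMM scale, where 16.3% of all tested genes were lower and 20.9% higher. Of 6 subunits outside the symbol rule 2 were lower: Cyc1, the cytochrome c1 of complex III (-0.32), and Ndufab1, the acyl carrier protein of complex I (-0.27); under total counts 0 of the 6 were lower and 3 higher. Assembly factors had medians nearer to 0 than the subunits, and no test between the lists was run: 3 of 17 were lower for complex I (median -0.11), 1 of 4 for complex II (-0.25), 2 of 6 for complex III (-0.25), 2 of 21 for complex IV (-0.13) and 0 of 3 for complex V (-0.07). These lists were not matched to the subunits in level, and fold change and level had a Spearman rho of -0.51 across all tested genes. Among the assembly factors Surf1, a heme-related one of complex IV, fell by 0.38 and Ecsit, one of complex I, fell by 0.40 on the log2 scale. Coa7, a complex IV assembly factor, was higher (0.36, adjusted p = 0.0271 in edgeR), a call lost without wild-type library 2 or 3 or Mdr2-knockout library 2 or 3 (adjusted p of 0.0539 to 0.102). Under total counts 6 assembly factors of complex I, 1 of III, 4 of IV and 1 of V were higher and none lower. On that scale 47.1% of all tested genes were higher and 2.62% lower.

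Electron carriers and coenzyme Q enzymes went both ways: 4 of 17 were lower and 1 higher (1 lower and 7 higher under total counts). The total counts given here stand beside 2.62% of all tested genes lower and 47.1% higher on that scale. Etfb, a subunit of the flavoprotein that brings electrons from fatty acid oxidation, measured 264, 245 and 217 CPM in wild-type and 147, 137 and 169 CPM in Mdr2-knockout (log2 fold change -0.68 with an SE of 0.10, adjusted p = 0.000735). Coq7, a hydroxylase of coenzyme Q synthesis, was higher (log2 fold change 0.61 with an SE of 0.12, adjusted p = 0.0032), and Coq5, a methyltransferase of the same route, was lower (-0.38). In the citric acid cycle 3 of 14 were lower and 1 higher (median -0.08; 0 lower and 8 higher under total counts): the NAD-linked Idh3b fell by 0.38 and Suclg1 by 0.33, while the NADP-linked Idh2 rose (log2 fold change 0.55 with an SE of 0.08, adjusted p = 0.000889). Of the mitochondrial ribosomal protein genes 25 of 77 were lower and 0 higher (median -0.18), with Mrpl34 and Mrpl9 at -0.50 and Mrps7 at -0.48; under total counts 1 was lower and 11 higher. Import and outer membrane genes had 8 of 20 lower and 0 higher (1 lower and 8 higher under total counts), led by Timm17b, a part of the inner membrane translocase (-0.58).

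Of 15 regulators of mitochondrial biogenesis 5 were lower and 0 higher under TMM scaling, and 2 higher and 0 lower under total counts. All tested genes were 16.3% lower and 20.9% higher under TMM, and 2.62% lower and 47.1% higher under total counts. Yy1, whose motif was searched above, was lower (log2 fold change -0.32 with an SE of 0.06, adjusted p = 0.00392). Polrmt, the mitochondrial RNA polymerase, was at -0.33 and lost its call without wild-type library 2 (adjusted p = 0.052 in edgeR), and Twnk, the mitochondrial DNA helicase, was at -0.38. Esrra, a nuclear receptor that works with PGC-1 coactivators, was at -0.22 with an adjusted p of 0.0444, lost without wild-type library 2 or 3 or Mdr2-knockout library 1 or 3 (adjusted p of 0.0937 to 0.119). Ppara, the fatty acid receptor, was at -0.78 (adjusted p = 0.0264), lost without wild-type library 1 or 2 or Mdr2-knockout library 1 (0.0617 to 0.0848). Ppargc1a, the PGC-1 alpha coactivator, was not called (0.22, SE 0.27), nor were Nrf1 (-0.26, SE 0.12), Gabpa (-0.0074, SE 0.07) and Tfam, the mitochondrial DNA packaging factor (-0.10, SE 0.08). The NRF1 motif lay in the promoters of 15 of 51 subunit genes called lower and 1 of 16 tested and not called. The ETS motif lay in 13 of 51 and 3 of 16, and the YY1 motif in 3 of 51 and 3 of 16. These counts are a description, without a test.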

How the data were processed

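The data were read from a table of raw whole-number counts per gene symbol, as deposited, and a table of FPKM for the same genes, computed by the authors. The deposited FPKM equalled counts over gene length and library total, so both hold the same reads. The submitters' processing notes name the build mm10 and the tools SAMtools, StringTie, Bowtie2, DESeq, HTSeq, Cufflinks, HISAT2 and Trimmomatic; no role, version, annotation or strand setting was found. Columns lettered M were read as Mdr2-knockout, whose titles begin so, and by elimination N as wild-type.

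The fit used edgeR 4.0.16 (R 4.3.3): filterByExpr at its defaults (minimum count 10, minimum total count 15), TMM factors, and glmQLFit (robust) and glmQLFTest on group alone with all 6 libraries. Adjustment was Benjamini-Hochberg over 12612 tested genes, with a threshold of 0.05; an adjusted p is from this fit unless another test is named. An SE is the fold change over the square root of F. CPM use the TMM-scaled library size. Levels of different genes were compared as FPKM, and isoform ratios by exact permutation. The scripts were tested on simulated data. There, 2.04% of genes changed 1.2-fold were recovered, 38% at 1.5-fold, 83.7% at 2-fold and 98% at 4-fold, with false calls at 6.78%. Small changes were thus mostly missed in the simulation. In the data 58 subunit genes were called lower at changes of -12.7% to -37.7%, so these shares do not carry over to the subunit genes. Rare isoforms are limited by depth: 3 counts are 0.149 to 0.192 CPM, a floor that covers counting error only.

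The alternatives were other scalings (RLE, upper-quartile, total counts), other tools (DESeq2 1.42.0; voom in limma 3.58.1), other filters (none; at least 1 CPM in 3 libraries), a replicate block and leaving out each library. Members and lists were chosen with earlier results of these data known. Named were Abcb4; each complex II gene; in the other complexes the 5 tested genes with the smallest p, the highest FPKM and the extreme fold changes; each isoform family and untested member; and 3 genes of each other list with the smallest p, with the regulators. Other genes were named after their values were seen.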

Additional observations from a re-analysis of the deposited data

How the results depend on the processing

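Of the choices tried, scaling moved the counts of calls most. Under total counts 2 subunit genes were lower and 4 higher (complex I 2 and 3, complexes II to IV 0 lower, complex V 0 lower and 1 higher), and scaled to the subunits' summed counts, an alternative chosen after seeing the data, 1 was lower and 2 higher (complex I 1 and 1, complexes II to IV 0 lower, complex V 0 lower and 1 higher). The second centres the subunits at 0 by construction. The first leaves out TMM factors of 0.889 to 0.920 in the wild-type and 1.099 to 1.113 in the Mdr2-knockout libraries, which shifts all genes alike. The median of all tested genes so moved from 0.01 to 0.30, and that of the subunit genes from -0.30 to -0.01. Why the factors differed was not tested. Of the 81 tested subunit genes 80 had a negative log2 fold change under TMM, 42 under total counts and 41 under the subunits' sum. Among named genes, the sign differed from that under TMM, with a call in at least one of the fits compared, under total counts and under the subunits' sum, in that order, for Sdha (0.00664, 0.0142), Sdhc (0.0400, 0.0473), Ndufa4 (0.0824, 0.0883), Uqcrh (0.00510, 0.0146), Cox7b (0.00102, 0.00845), Atp5b (0.0334, 0.0413), Atp5md (0.223, 0.229), Atp5g3 (0.00843, 0.0173), Cox7a2l (0.0975, 0.0991), Ndufab1 (0.0270, 0.0302), Lrpprc (0.0784, 0.0847), Gabpa (0.285, 0.293) and Esrra (0.0706, 0.0749), under total counts for Ndufc2 (0.251) and Tmem70 (0.229), and under the subunits' sum for Uqcc2 (0.00341). Ndufc2 and Tmem70 were positive under the subunits' sum as well (0.258 and 0.236), without a call. Among genes named after their values were seen, the sign also differed in both for Ndufs1 (0.233, 0.240) and Cox5b (0.0193, 0.0250). For Ndufs4 it differed under total counts (0.207, called higher) and under the subunits' sum (0.209, without a call). Upper-quartile scaling gave 42 lower subunit genes, with 2 in complex II, 5 in complex IV and 8 in complex V, and a filter of 1 CPM in 3 libraries gave 54, with 2 in complex II; the cause was not tested. RLE gave 60, DESeq2 59, limma-voom 58 and no filter 61, with 0 higher in each.

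Leaving out 1 library gave 42 to 65 lower subunit genes: 21 to 29 in complex I, 1 to 4 in complex II, 6 to 8 in complex III, 5 to 9 in complex IV and 8 to 15 in complex V, with 0 higher in each. The replicate block gave 58, of which 55 were called without it. Same-numbered libraries deviated together at r of 0.11, 0.06 and -0.08, and not every library correlated best with its own number. These values cannot decide whether libraries of the same number share more than that number. The ratios of isoforms kept adjusted p of 0.889 or more from FPKM or with 0.5 count added. At this depth the isoforms with 0 to 5 counts a library could not be compared.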
